A study of Rattus norvegicus with 70 samples.

Results

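The peaks described here are places in the rat liver genome that the authors' deposited peak list calls at both sampling times. The list compares captured methylated DNA of livers initiated with the higher dose of diethylnitrosamine (DEN) and livers given phenobarbital alone. Its read counts have no replicates, so their spread between livers is unknown. The peaks were taken as the autosomal peaks of time point 11w that share at least 1 bp with a peak of time point 5w. Each peak could have either direction. The rule found 270 of the 6109 autosomal 11w peaks, which is 4.42%, against 28488 autosomal peaks at 5w. The members were chosen by position, in a list that was itself selected on the reads of both groups, so reads and directions are given as a description and no test was made on them.

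The study followed rats of the outbred stock Crj:CD(SD)IGS through a model of liver carcinogenesis in which an initiating chemical is followed by a promoter. The peak list compares only DEN at 30 mg/kg followed by 500 ppm phenobarbital with the 0.5% methylcellulose vehicle followed by 500 ppm phenobarbital. The other groups received vehicle and water, or phenobarbital after DEN (3 mg/kg), the hepatotoxicant thioacetamide (45 mg/kg), the antihistamine methapyrilene (100 mg/kg) or the analgesic acetaminophen (1000 mg/kg). Each group gave 5 livers at each of 2 samplings. The first was the partial hepatectomy, when promotion had lasted 1 week, and the second was the terminal euthanasia, when it had lasted 6 weeks. DEN at 30 mg/kg was given for 1 week because the animals lost weight, the other treatments lasted 1 or 2 weeks, and all animals underwent the hepatectomy. The list's 5w and 11w were read here as those 2 samplings. The sample titles number the libraries, and these numbers were grouped here into blocks 1 to 4. At both times DEN 30 mg/kg had libraries in blocks 1, 3 and 4, and vehicle plus phenobarbital in blocks 1, 2 and 3. The labels do not say what the numbers stand for, and treatment and block cannot be fully told apart. The labels give no age, and whole liver was sampled, so a change in the mix of cell types and a change of methylation within a cell type cannot be told apart.

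Cytosine methylation at CG dinucleotides covers most of a mammalian genome, between genes and inside introns, and is usually low at CG-rich promoters of active genes. The assay captures DNA fragments with a methyl-CpG-binding domain protein and sequences them, so a read count in a window reflects both methylation and the number of CG sites there. DEN is metabolised in hepatocytes to an alkylating agent that forms DNA adducts, and phenobarbital promotes the outgrowth of initiated cells. A peak called higher here had more reads in DEN 30 mg/kg than in vehicle plus phenobarbital, and a peak called lower had fewer.

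1 of the shared peaks lay at the transcript start of RT1-CE5, a class I histocompatibility gene of the rat. It is the only shared peak that crosses the start in any of the 6 transcript-start regions holding one, and its promoter is shown for that reason. The sequence is the RefSeq promoter of the GRCr8 assembly, chr20:3484041-3484340 on the minus strand, 250 bases before to 50 bases after the start, with each CG in capitals.
RT1-CE5: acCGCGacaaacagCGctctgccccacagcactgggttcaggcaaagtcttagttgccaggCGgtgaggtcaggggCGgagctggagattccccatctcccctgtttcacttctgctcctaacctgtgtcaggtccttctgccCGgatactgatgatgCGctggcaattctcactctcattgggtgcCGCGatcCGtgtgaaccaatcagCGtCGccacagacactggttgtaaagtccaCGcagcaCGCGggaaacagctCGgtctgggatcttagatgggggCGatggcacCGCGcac
It holds 19 CG dinucleotides, against a median of 7 in the 33469 promoters of 300 bases in the same table, and 25.7% of those promoters hold at least as many. The labels and headers name no build for the authors' coordinates, so the peak's edges were not placed on these letters. RT1-CE5 is 1 of a family of similar genes, and the aligned promoters of 11 other RT1-CE genes had 49.6% to 81.1% of positions identical with it. Neither labels nor headers say how reads shared between such copies were assigned.

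The direction of the peaks differed strongly between the times in the list as a whole. Peaks lower in DEN 30 mg/kg made up 4.45% of the autosomal peaks at 5w and 67.97% at 11w. The libraries of the compared groups also differed between the times. At partial hepatectomy 2 libraries had under 1% of transcript-start windows without a read, both of DEN 30 mg/kg. At terminal euthanasia each group had 1 such library. Whether this bears on the direction of the peaks was not tested. Among the shared peaks, 109 were higher at both times, 94 were lower at both times, 66 were lower at 11w and higher at 5w, and 2 were higher at 11w and lower at 5w. These are 271 pairs for 270 peaks, since 1 peak on chromosome 7 (chr7:131043111-131043290, lower at 11w) overlapped both a higher and a lower 5w peak. In all, 203 pairs kept their direction and 68 did not.

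As shares of the lists, the 109 pairs higher at both times were 5.57% of the 1957 higher peaks at 11w but 0.400% of the 27219 higher peaks at 5w. The 94 pairs lower at both times were 2.26% of the 4152 lower peaks at 11w and 7.41% of the 1269 lower peaks at 5w. The 66 pairs that were lower at 11w and higher at 5w were 1.59% of the first list and 0.242% of the second. The 2 pairs of the remaining kind were 0.102% and 0.158% of their lists. By direction at 11w, 5.67% of the higher and 3.83% of the lower peaks overlapped a 5w peak. Lower peaks were few at 5w and common at 11w, and that short 5w list had the largest shared part of the 4 lists.

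**Figure D1:**
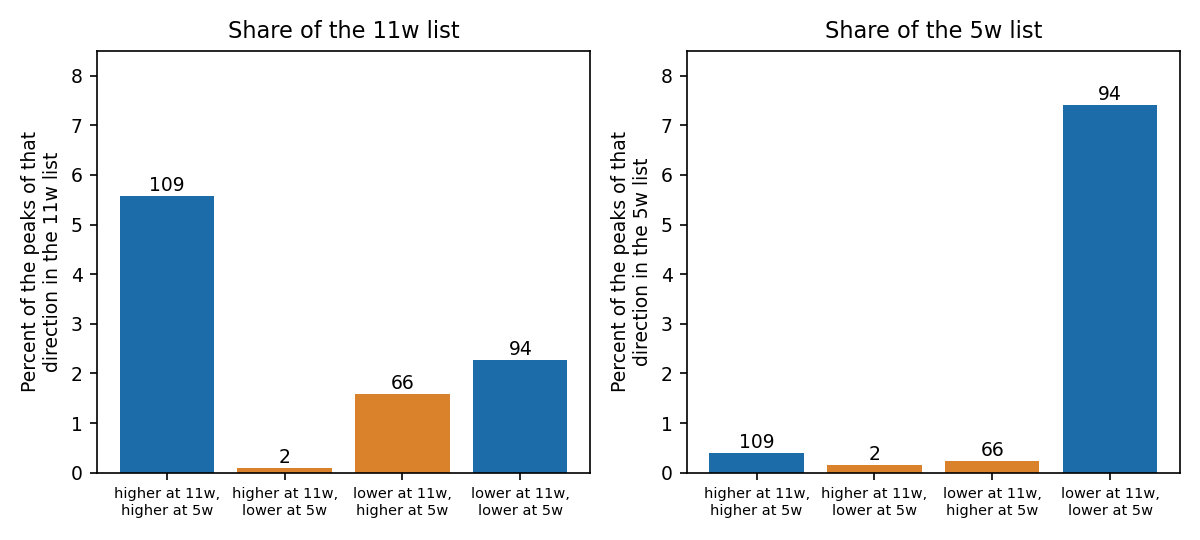
Shared peaks by direction in DEN 30 mg/kg against vehicle plus phenobarbital. Bars give the percent of the 11w list (left) or the 5w list (right) of that direction, the number above each bar is the number of pairs, blue marks equal and orange opposite directions; the tallest bar is the 7.41% of lower 5w peaks that were lower again at 11w.

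Peaks that kept their direction had more reads than peaks that did not. In the library set in which the peak was higher, the median count was 29 reads at 11w and 34.5 at 5w for pairs lower at both times, and 21 and 22 reads for pairs higher at both times. For pairs lower at 11w and higher at 5w the medians were 17 and 19.5 reads, close to the smallest count of 15 in the list. The largest count among opposite pairs was 47 reads at 11w and 39 at 5w, while pairs of equal direction reached 2246 and 7250. Over the 203 pairs of equal direction the counts at both times had a Spearman rho of 0.53, and over the 68 opposite pairs rho was 0.16. The points of each correlation come from the same libraries, so rho is a description without a test.

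**Figure D2:**
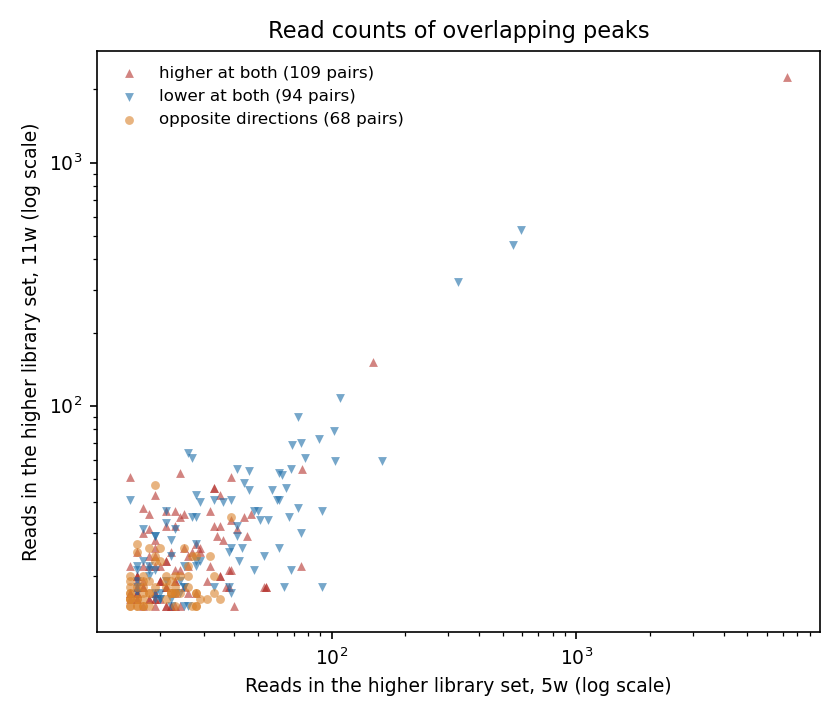
Reads in the library set where a peak was higher, at 5w and 11w, both on log scales. Each point is a pair of overlapping peaks, triangles point up for higher and down for lower at both times, and circles are opposite pairs; the circles lie at 47 reads or fewer, and the point at 7250 and 2246 reads is the Tmem132c peak.

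The shared part of the 11w list grew with the read count. Among 3375 peaks with 15 to 19 reads, 2.10% overlapped a 5w peak of the same direction and 1.39% one of the opposite direction. Among 2194 peaks with 20 to 29 reads the shares were 2.69% and 0.866%. They were 10.7% and 0.445% among 449 peaks with 30 to 49 reads. Of 91 peaks with 50 reads or more, 25 overlapped a peak of the same direction, which is 27.5%, and none overlapped one of the opposite direction. Among the lower peaks of 5w, the share with an 11w peak of the same direction went from 3.59% of 446 peaks with 15 to 19 reads to 50.8% of 61 peaks with 50 reads or more. Neighbouring peaks were counted singly. At both times the shared lower peaks with 50 reads or more include several from each of the dense places near Prkca and Kif26b described below. The reads of a peak also decided whether it entered the list, so these shares describe the list and not the genome.

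**Figure D3:**
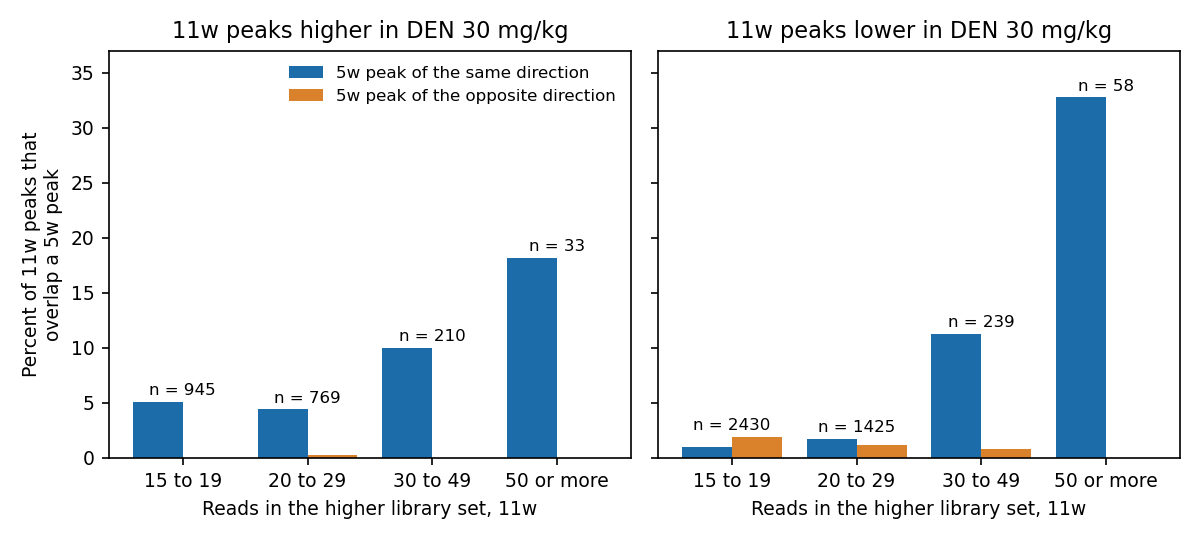
Percent of 11w peaks that overlap a 5w peak, by reads in the set where the 11w peak was higher, for peaks higher (left) and lower (right) in DEN 30 mg/kg. Blue bars count 5w peaks of the same direction and orange bars those of the opposite direction. The number of 11w peaks in the class is n, with neighbouring peaks counted singly. Of the 58 lower peaks with 50 reads or more, 32.8% were shared with the same direction. Several of these lay in the places near Prkca and Kif26b.

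By location, the intergenic and intronic shares among shared peaks lay close to those of the whole 11w list. The upstream share and that of the remaining class, on few peaks, were lower, with no test made. A peak annotated to more than 1 gene, as 5 were, was counted under the first in alphabetical order. Of the 270 peaks, 165 were intergenic (61.1%, against 58.7% of all 11w peaks) and 89 were intronic (32.96% against 32.07%). A further 12 were upstream of a gene (4.44% against 5.57%) and 4 fell in the remaining class (1.48% against 3.63%). These 4 all touched an exon. The RT1-CE5 peak, also annotated as 5'UTR of that gene, was counted as intronic through Clic1. The median distance to the nearest transcript start of the region tables was 74.2 kb, against 80.0 kb for all 11w peaks, and 45.2% against 44.7% lay more than 100 kb away. The median width was 185 bp for shared peaks, 180 bp for all 11w peaks and 217.5 bp for pairs lower at both times. Shared peaks were found on all 20 autosomes, from 5 on chromosome 12 to 27 on chromosome 1. Chromosome 10 had the largest shared part, with 24 of its 312 11w peaks (7.69%), and 9 of those 24 lay in 1 place.

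That place was upstream of Prkca, the gene of protein kinase C alpha, at chr10:97622806-97631038. All 9 of its shared peaks were lower in DEN 30 mg/kg at both times, with 101 reads in DEN 30 mg/kg against 1040 in vehicle plus phenobarbital at 5w and 80 against 907 at 11w. The widest, chr10:97624889-97626348, began 6.77 kb from the Prkca start and held 58 against 593 reads at 5w and 49 against 527 at 11w. The other 8 held between 19 and 102 reads in vehicle plus phenobarbital at 5w. No peak higher in DEN 30 mg/kg lay between them at either time.

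A second dense place, chr13:94174208-94177811, lay 7.14 kb to 10.4 kb from the start of Kif26b, a kinesin family gene. Its 4 peaks were lower at both times, with 2 against 502 reads at 5w and 4 against 492 at 11w. Most of these reads lay in chr13:94176319-94177811, which had 0 against 328 reads at 5w and 1 against 322 at 11w. A count of 0 allows up to 3 reads, for counting error only. On the same chromosome, both peaks of chr13:80780615-80782890 had 0 reads in DEN 30 mg/kg at both times, against 111 at 5w and 91 at 11w in vehicle plus phenobarbital.

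**Figure D4:**
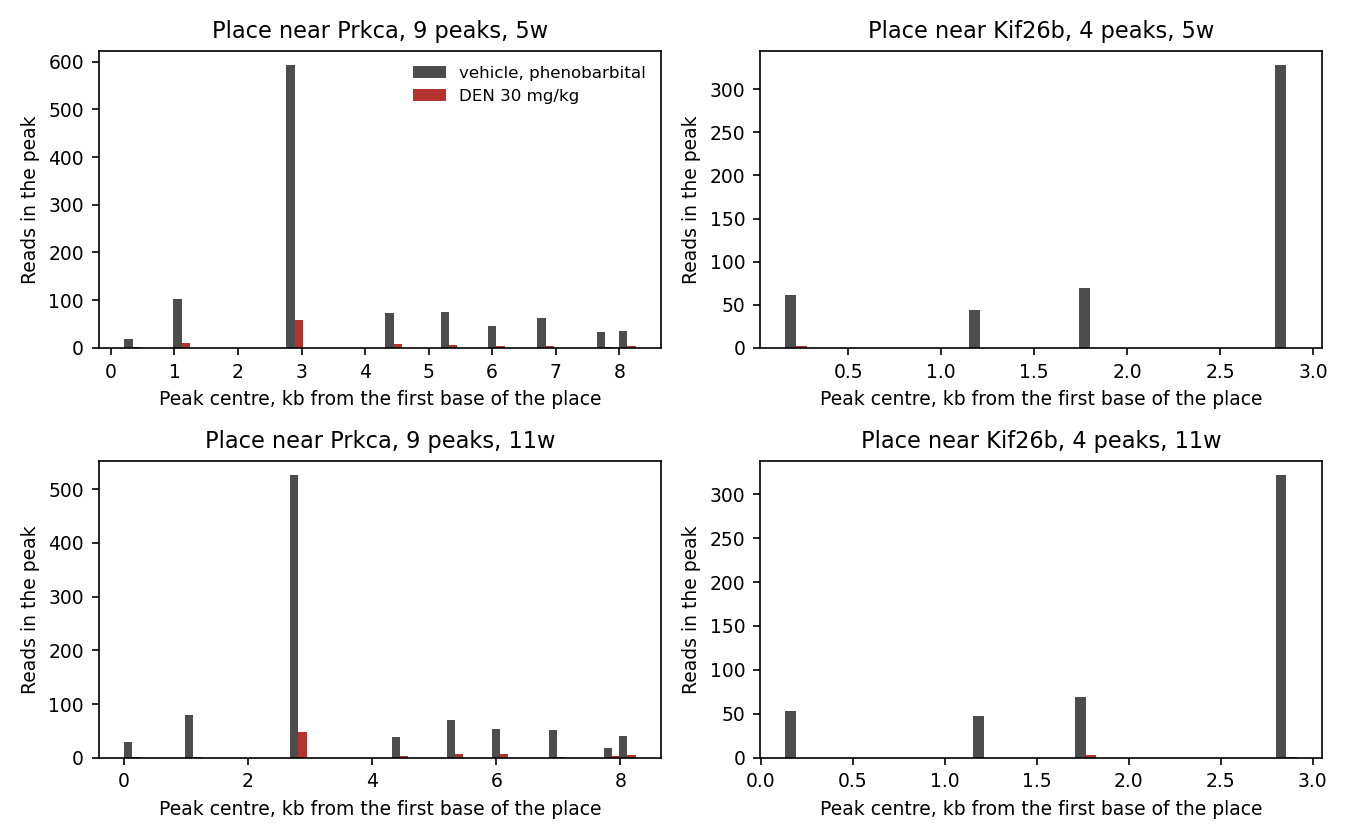
Reads per peak in vehicle plus phenobarbital (grey) and DEN 30 mg/kg (red) at the dense places near Prkca (left) and Kif26b (right), at 5w (top) and 11w (bottom). The horizontal axis is the distance of the peak centre from the first base of the place in kb, and grey bars are the taller in all 13 peaks at both times.

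With peaks joined when they lay within 10 kb, the 270 peaks formed 252 places, of which 9 held 2 or more peaks and 27 peaks in all. All peaks of a place had 1 direction. 7 of the 9 places were lower at both times, and the other 2, at chr15:16258718-16266525 and in an intron of Atp8b1, were higher. Neighbouring peaks share animals and possibly DNA fragments, so they are not independent of each other.

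Among pairs higher at both times, the rule for naming takes the 10 with the largest smaller value of the authors' enrichment factor, their scaled ratio of reads. The list gives no factor where the lower set had 0 reads, so the ranking covers 97 of the 109 pairs higher at both times and 71 of the 94 pairs lower at both times. Tmem132c, a transmembrane protein gene, led this group with an intronic peak of 7250 against 24 reads at 5w and 2246 against 23 at 11w, chr12:30182365-30182545. No other shared peak of this direction exceeded 152 reads at 11w. The next 9 had 15 to 37 reads in DEN 30 mg/kg and 1 or 2 in vehicle plus phenobarbital at 11w. They included introns of Grin2a, an NMDA glutamate receptor subunit (32 against 2 reads at 5w, 37 against 2 at 11w), and of Fmn1, a formin that nucleates actin filaments (22 against 1, then 15 against 1). Introns of Wdfy2, an endosomal protein gene (28 against 2, then 17 against 1), of Camkk2, a kinase upstream of CaM kinases and AMPK (29 against 1, then 25 against 2), and of D3ZWD8_RAT (39 against 3, then 34 against 2) belonged to it as well. The other 4 were intergenic, and the nearest starts were those of Cxcl13, Prmt6, Poc5 and Glt8d3, at 24.4, 5.74, 79.2 and 208 kb. Outside the ranking, and named after their values were seen, 2 pairs had 0 reads in vehicle plus phenobarbital at both times. They were intergenic, chr15:23163451-23163797 with 39 reads in DEN 30 mg/kg at 5w and 51 at 11w, and chr15:108287588-108287841 with 18 and 36.

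Among pairs lower at both times that had a factor at both, the first peak was intergenic, chr4:6604106-6604348, at 71.4 kb from the nearest start, Tomm7. It had 20 reads in DEN 30 mg/kg against 552 in vehicle plus phenobarbital at 5w, and 14 against 457 at 11w. 4 of the next 9 belonged to the place near Prkca. The others had 17 to 41 reads in vehicle plus phenobarbital and 1 to 3 in DEN 30 mg/kg at both times. They lay in introns of Ralyl, an RNA-binding protein gene (2 against 41 reads at 5w, 3 against 32 at 11w), and Btbd16 (1 against 18, then 2 against 20), upstream of F1LXB3_RAT, and in 2 intergenic windows 241 kb from Snx13 and 194 kb from St8sia4. A further 9 pairs lower at both times had 0 reads in DEN 30 mg/kg at each time and so no rank, with 22 to 68 reads in vehicle plus phenobarbital at 5w and 21 to 48 at 11w. 3 of them lay in the places on chromosome 13 described above, and others lay in introns of Cadps2, Ankrd6, Ppp3ca and Plcxd3. Further shared peaks with 50 reads or more at 11w, chosen after their values were seen, lay in introns of Bmp2k, a kinase gene (148 against 14 reads at 5w, 152 against 16 at 11w, higher), Polk, a translesion DNA polymerase (76 against 3, then 55 against 5, higher), and Smyd3, a lysine methyltransferase (0 against 103, then 2 against 59, lower).

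Most opposite pairs had low counts, with the largest at 47 reads at 11w and 39 at 5w. The 10 with the longest overlap, 162 to 190 bp, were all higher at 5w, with 15 to 29 against 1 to 4 reads, and lower at 11w, with 0 to 4 against 15 to 20 reads. Introns of Negr1, a neuronal adhesion gene (17 against 2 reads in DEN 30 mg/kg and vehicle plus phenobarbital at 5w, 3 against 18 at 11w), and Mapk10, which encodes the kinase JNK3 (29 against 4, then 3 against 16), had the 2 longest. Frmd4b (22 against 2, then 2 against 17), Pftk1, now named Cdk14, a cyclin-dependent kinase (22 against 2, then 4 against 19), Hydin, a protein of motile cilia (18 against 4, then 4 against 15), and D4A9Y4_RAT (15 against 1, then 3 against 17) followed, also in introns. The other 4 were intergenic, at 294.8 to 898 kb from the nearest start.

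A gene annotation was given for 105 of the 270 peaks, naming 100 genes, of which 68 matched a RefSeq symbol, 7 matched through an older symbol and 17 had a UniProt style name. At the level of genes the lists overlapped more than at the level of positions. A gene spans more bases than a peak, so more overlap at that level is built in. Of 2103 genes with an 11w peak, 61.9% also had a 5w peak, yet of the 1302 genes with peaks at both times 7.68% held an overlapping one. In all, 6343 genes had a 5w peak, and their share of all annotated genes was not computed.

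9 genes held 2 or more shared peaks. Magi2, a scaffold protein of cell junctions, held 3 in its introns, 2 higher at both times (19 against 2 and 26 against 3 reads at 5w) and 1 lower at both times (5 against 22 reads at 5w and 2 against 16 at 11w). Fbxl17, an F-box protein of a ubiquitin ligase, held 1 of each direction, and Fmn1 held 1 higher pair and 1 opposite pair. Both peaks of Atp8b1, a phospholipid flippase of the bile canaliculus, were higher (21 against 4 and 75 against 6 reads at 5w, 23 against 2 and 22 against 4 at 11w). Both peaks were lower at both times in Ppp3ca, the catalytic subunit of calcineurin (0 against 39 and 6 against 64 reads at 5w, 0 against 26 and 0 against 18 at 11w), and in Cntn1, a neuronal adhesion gene (16 against 91 and 2 against 16, then 2 against 18 and 0 against 21). The same held for Lvrn, an aminopeptidase gene (4 against 27 and 16 against 89, then 4 against 35 and 14 against 73), and RGD1308448, now named Plcxd3 (0 against 41 and 3 against 20, then 0 against 29 and 1 against 16). RGD1566296, the ninth gene, lay outside the 8 of the naming rule, and its 2 intronic peaks were lower at both times (4 against 28 and 4 against 39 reads at 5w, 1 against 27 and 1 against 41 at 11w). Magi2 and Fbxl17 thus held peaks of both directions, while Atp8b1, Ppp3ca, Cntn1, Lvrn, Plcxd3 and RGD1566296 held peaks of 1.

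Of 273 genes in 11 lists of liver cell markers and pathways, 71 had a 5w peak, 26 had an 11w peak and 1 had a shared peak. That is 3.85% of the listed genes with an 11w peak, beside 4.76% of all 2103 genes with one. These shares cannot be compared on 1 gene. That gene was Vwf, the von Willebrand factor of endothelial cells, with an intronic peak of 7 against 61 reads at 5w and 2 against 41 at 11w, lower at both times. The 39 phenobarbital response genes had 12 genes with a 5w peak and 2 with an 11w peak, the 42 tumour suppressors 18 and 7, the 35 proto-oncogenes 10 and 3, the 46 imprinted genes 9 and 4, and the 17 genes of the methylation machinery 3 and 1. Hepatocyte markers had 3 and 3 of 22, biliary or progenitor markers 5 and 0 of 12, and stellate or fibroblast markers 3 and 2 of 15. Macrophage markers had 2 and 1 of 15, endothelial markers 3 and 1 of 11, and lymphocyte markers 3 and 2 of 19. The share of all annotated genes with a peak was not computed, so these counts do not show whether a list has more or fewer than other genes.

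The rule's threshold is 1 shared base. The smallest overlaps were 7 bp in Slc12a3, a sodium chloride cotransporter gene (15 against 2 reads at both times in the higher set, opposite directions), 15 bp in Cdk5rap1 and 16 bp on chromosome 19. The closest 11w peaks that shared no base were 3, 7 and 11 bp away from a 5w peak, the last in Pbx3, a homeobox gene.

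Values of single livers are available only for windows of 5625 bp that begin 4500 bp before a transcript start, in which the authors gave a scaled read signal. Such a window held 6 of the 270 shared peaks (2.22%, against 228 of 6109 or 3.73% of all 11w peaks). They belonged to Fbxl16 (the peak runs from -378 to -224 bp, counted from the start), Csmd1 (-2212 to -1969 bp), Ankrd34b (-3672 to -3501 bp), RT1-CE5 (-167 to 13 bp), Cd82 (-3812 to -3650 bp) and Prr5l (-2281 to -2089 bp). The list places the Csmd1 peak between genes, and it annotates the RT1-CE5 peak of 11w, chr20:3513719-3513899, as 5'UTR of RT1-CE5 and as an intron of Clic1. A peak covers a small part of its window, so the signal of the window need not follow the peak.

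The RT1-CE5 window was low in nearly all livers of DEN 30 mg/kg and in 1 liver of vehicle plus phenobarbital at each time. At partial hepatectomy the 5 livers of vehicle plus phenobarbital had a signal of 63.2, 78.9, 1.06, 28.4 and 53.6, and those of DEN 30 mg/kg had 2.12, 0.01, 4.795, 5.02 and 1.03, where 0.01 stands for no read. At terminal euthanasia the values were 43.6, 42.8, 3.04, 40.3 and 19.5 against 16.4, 2.17, 2.12, 0.01 and 0.01. The means were 45.0 ± 30.7 and 2.59 ± 2.24 (SD, n = 5 each) at partial hepatectomy, and 29.9 ± 17.99 and 4.14 ± 6.93 at terminal euthanasia. Replicate 3 of vehicle plus phenobarbital was low at both times, and the groups overlapped through it at partial hepatectomy and through it and DEN 30 mg/kg replicate 1 at terminal euthanasia. 9 of the 70 libraries had under 1% of windows without a read, against at least 1.60% in the others, among them DEN 30 mg/kg replicates 3 and 4 at partial hepatectomy. Without them the RT1-CE5 means were 1.05 against 45.0 (n = 3 and 5) and 4.64 against 32.5 (n = 4 each). The peak itself had 1 against 57 reads at 5w and 0 against 45 at 11w.

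The level of RT1-CE5 also varied widely in groups that the peak list did not use. Over the 25 livers of the water, DEN 3 mg/kg, thioacetamide, methapyrilene and acetaminophen groups the signal ran from 0.01 to 51.5 with a median of 7.63 at partial hepatectomy, and 9 of the 25 had less than 5. At terminal euthanasia it ran from 0.928 to 47.1 with a median of 13.2, and 5 had less than 5. In the water group the lowest, median and highest were 1.91, 23.3 and 42.1 at partial hepatectomy and 7.01, 26.9 and 33.5 at terminal euthanasia. At partial hepatectomy DEN 3 mg/kg ran from 1.00 to 22.3. The other groups of that time, which received no DEN, ran from 1.02 to 51.5 (thioacetamide), 0.01 to 25.7 (methapyrilene) and 0.01 to 14.5 (acetaminophen). Whether DEN changed the level was not tested with these groups.

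In the other 5 windows the livers of DEN 30 mg/kg and of vehicle plus phenobarbital overlapped at both times. Cd82, a tetraspanin gene whose peak was higher at 5w and lower at 11w, had 30.7, 21.02, 29.7, 58.2 and 20.5 in DEN 30 mg/kg against 11.6, 26.7, 15.9, 17.5 and 15.99 at partial hepatectomy. At terminal euthanasia it had 38.2, 16.3, 34.98, 11.4 and 37.04 against 12.9, 19.02, 32.4, 17.3 and 41.2. Only replicate 2 of vehicle plus phenobarbital reached into the DEN 30 mg/kg values at the first time. DEN 30 mg/kg replicates 3 and 4 of that time came from libraries with under 1% of windows without a read. Without them the DEN 30 mg/kg mean of Cd82 fell to 24.1, against 17.5 in vehicle plus phenobarbital (n = 3 and 5). Csmd1, a large membrane protein gene with complement control domains, had means of 179 ± 15.7 against 164 ± 22.004 and then 207 ± 34.8 against 177 ± 22.5 (SD, n = 5 each), while its peak was lower at both times.

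Prr5l, which encodes a partner of mTOR complex 2, had 69.97 ± 19.8 against 58.8 ± 10.5 and 75.9 ± 9.96 against 63.03 ± 11.5. Fbxl16, an F-box protein gene, had 114 ± 19.02 against 118 ± 23.97 and 132 ± 27.97 against 121 ± 24.1. Ankrd34b had 53.5 ± 12.4 against 51.5 ± 17.3 and 58.5 ± 28.8 against 51.3 ± 12.5. In Fbxl16 and Ankrd34b the means lay within 1 SD of each other at both times. None of the 6 windows had 5 and 5 livers without overlap at either time. Over all windows tested, DEN 30 mg/kg lay wholly above vehicle plus phenobarbital in 1.05% and wholly below it in 0.152% at partial hepatectomy, and in 0.306% and 0.0687% at terminal euthanasia.

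**Figure D5:**
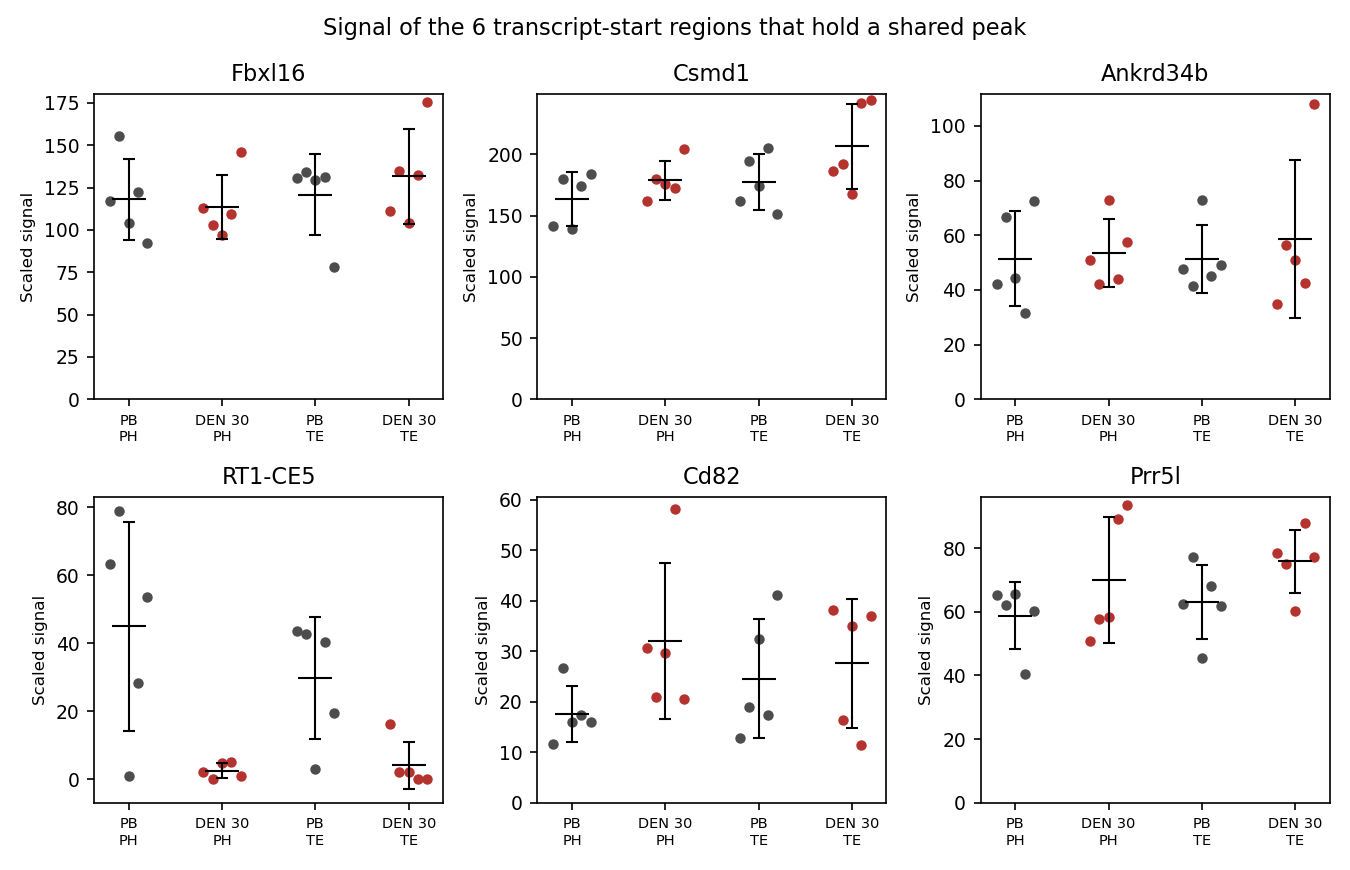
Scaled signal of the transcript-start windows that hold a shared peak, in vehicle plus phenobarbital (PB, grey) and DEN 30 mg/kg (red), at partial hepatectomy (PH) and terminal euthanasia (TE). Each point is 1 liver, in order of replicate from left to right, the bar is the mean and the whisker the SD (n = 5); RT1-CE5 is low in DEN 30 mg/kg and in replicate 3 of vehicle plus phenobarbital, and the groups overlap in all 6 windows.

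Groups that the peak list did not use allowed tests of the same 6 windows. DEN 3 mg/kg was compared with the mean of thioacetamide, methapyrilene and acetaminophen, all with phenobarbital, by limma on log2(signal + 1) with Benjamini-Hochberg adjustment over all windows. Limma called 0 of 15809 windows at partial hepatectomy and 0 of 16008 at terminal euthanasia (0.0% in each, with 452 and 1451 windows at an unadjusted p of 0.05 or less). None of the 6 windows passed. The smallest unadjusted p at partial hepatectomy was that of Cd82, with a log2 difference of -0.57 ± 0.29 (SE) and an adjusted p of 1.00 by limma. Cd82 also had the smallest at terminal euthanasia, with -0.33 ± 0.29 and an adjusted p of 0.676 by limma. By the same rule Csmd1 (-0.17 ± 0.15) and Fbxl16 (0.08 ± 0.15) followed at partial hepatectomy, and Csmd1 (0.10 ± 0.16) and RT1-CE5 (0.26 ± 0.56) at terminal euthanasia.

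The times were compared by limma as the mean over the water, DEN 3 mg/kg, thioacetamide, methapyrilene and acetaminophen groups. This fit held all libraries of both times, so the other groups again entered the filter and the estimate of spread. Of 16385 windows 2 were called, which is 0.0122%, both higher at terminal euthanasia, and neither held a shared peak (899 windows had an unadjusted p of 0.05 or less). This count was not stable. It was 5 with quantile normalization, 10 with blocks of library numbers, 13 with a replicate block, and up to 8 without 1 library, namely thioacetamide replicate 5 at partial hepatectomy or DEN 3 mg/kg replicate 1 at terminal euthanasia. RT1-CE5 had the smallest p of the 6, with a log2 difference of 0.57 ± 0.37 (SE), terminal euthanasia minus partial hepatectomy, and an adjusted p of 1.00 by limma. Prr5l differed by 0.12 ± 0.09 and Cd82 by 0.19 ± 0.16, each with an adjusted p of 1.00 by limma. All 6 differences were above 0, from 0.01 to 0.57, beside a median of 0.05 over all windows tested.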

How the data were processed

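DNA from 70 livers was enriched for methylation and sequenced as 50-base SOLiD reads, per the labels' protocols. The authors deposited 2 tables of scaled signal for 17174 transcript-start windows and 1 peak list with read counts and, per the file headers, a read density and an enrichment factor (a ratio). Caller, threshold, build and pooling of libraries: not given in the sources used here. From the values, 1 factor scales each library, and 0.01 stands for no read. Library totals implied by that factor, if values are per 50 M reads, ran from 42.1 to 56.6 M (20 libraries repeat another's total), and reads in windows from 0.933 to 1.80 M. Of those 20 libraries, 10 were in block 1 of the library numbers and 10 in block 4. Replicate 5 of DEN 30 mg/kg was in block 4 at both times, and no liver of vehicle plus phenobarbital was. Whether the scale of these libraries is right was not tested. In 60 of 1108 peaks inside a window, the peak count exceeded the window's reads in every single library of its group, and in 14 it exceeded their sum over all 5, so the peak counts are not simply pooled reads of these tables.

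Overlaps were computed in Python 3.11.15 with inclusive coordinates. Limma 3.58.1 with trend used log2(signal + 1) and windows with at least 10 in at least 5 libraries, tested on simulated data. Replicates within a group are separate livers, and whether both samplings came from the same animals is not stated. Named peaks were those with the largest smaller enrichment factor per direction (10 each, pairs with 0 reads in a set having no factor), the 10 opposite pairs with the longest overlap, those in windows or listed genes, the 3 at each side of the overlap rule, and genes with 2 or more peaks (8). Members and lists were chosen with earlier results of these data known.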

Additional observations from a re-analysis of the deposited data

Results flagged for a closer look

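Within the 6 windows and 14 groups, 6 of 84 groups of 5 livers (7.14%) held a liver whose distance from the nearest other exceeded Dixon's limit of 0.71 of the group's range. Chance flags about 1 in 20 groups. In Fbxl16, vehicle plus phenobarbital replicate 5 at terminal euthanasia had 77.8, with the nearest other at 129.8. In Ankrd34b, vehicle plus phenobarbital replicate 3 at terminal euthanasia had 73.0, with the nearest at 49.2. In RT1-CE5 at terminal euthanasia, DEN 30 mg/kg replicate 1 had 16.4 beside 2.17, and methapyrilene replicate 4 had 24.5 beside 7.73. In Cd82, DEN 30 mg/kg replicate 4 at partial hepatectomy had 58.2 beside 30.7. The library of this liver and that of the flagged Fbxl16 liver had under 1% of windows without a read (0.879% and 0.739%). The libraries of the other flagged livers did not. In Prr5l, vehicle plus phenobarbital replicate 4 at partial hepatectomy had 40.4 beside 60.2.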

How the results depend on the processing

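The 270 shared peaks became 223 with 50% of the shorter peak shared, 191 with 50% of both, 405 when peaks within 500 bp counted, 115 among peaks above the median read count of their time (103 pairs of equal and 13 of opposite direction) and 102 above the median enrichment factor (88 and 14). Counted as places within 10 kb, an alternative chosen after seeing the data, they were 252. The count of windows called between the times, 2, was 5 with quantile normalization, 13 with treatment and replicate number as a replicate block, 10 with blocks of library numbers, 7 with only the groups of the contrast, 5 without the libraries in which under 1% of windows had no read, and 2 to 8 without 1 library each. It reached 8 without thioacetamide replicate 5 at partial hepatectomy or DEN 3 mg/kg replicate 1 at terminal euthanasia. The cause was not tested. The labels do not say that replicate numbers pair the livers, and not every correlation exceeded 0.1. Deviations of same-numbered livers correlated between -0.36 and 0.65 across times, and between -0.40 and 0.67 within a time. Across times, 21 of 35 livers were closest to their own number (7 of 35 if numbers carried nothing). Same-numbered livers of a treatment also fell in the same block of library numbers at both times. Pairing of animals and library block therefore cannot be told apart. The replicate block left the DEN 3 mg/kg comparisons at 0 calls. Without 1 library the terminal euthanasia comparison had 0 to 1 calls (1 without DEN 3 mg/kg replicate 2 or 5). Windows whose DEN 30 mg/kg and vehicle plus phenobarbital livers did not overlap numbered 0 to 1 at each time, namely Cd82 without vehicle plus phenobarbital replicate 2 at partial hepatectomy, and RT1-CE5 without its replicate 3 at either time or without DEN 30 mg/kg replicate 1 at terminal euthanasia. Of 342 refits of the 9 named window differences, none passed the threshold and 3 changed sign. At terminal euthanasia Csmd1 was -0.0854 with quantile normalization and -0.0199 without the libraries named above, and RT1-CE5 ran from -0.0093 (without DEN 3 mg/kg replicate 4) to 0.56. EdgeR and DESeq2 were not run: nonzero values are whole multiples of 1 step per library, but values of 0.01 for no read are not, and the tables were kept as scaled signal. Peak reads have no replicates, so their spread between livers is unknown.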
